A study of Mus musculus with 70 samples.

Results

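The glutathione S-transferases of the mouse lung were followed through 10 genes: Gsta2, Gsta3 and Gsta4 of the alpha class, Gstm1 and Gstm2 of the mu class, Gstp1 (pi), Gstt1 (theta), Gsto1 (omega), and the membrane-bound Mgst1 and Mgst2. They were taken by gene symbol from the platform's table of probe sets. Where a gene had several probe sets, the brightest on average over the 70 arrays stood for it. All 10 were found, and all 10 were among the 14593 genes left for testing by a filter on low signal. Each Affymetrix array measured RNA from the right lung lobe of 1 female B6C3F1 mouse, a hybrid strain used in carcinogenicity bioassays, aged 18 weeks at 13 weeks of exposure. The values are log2 signals, so a difference of 1 unit is a doubling.

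Animals fell into set 1 and set 2 by the number before the hyphen in their identifier, which the labels do not explain. In set 1 each group held 3 mice. Of its treated groups 3 ate feed with 1,5-naphthalenediamine (2000 ppm), N-(1-naphthyl)ethylenediamine dihydrochloride (2000 ppm) or pentachloronitrobenzene (8187 ppm) on 7 days a week and share the set 1 feed controls. The other group of set 1 received 2,3-benzofuran (240 mg/kg) by gavage in corn oil and has its own corn oil controls. In set 2 each treated group held 4 mice. Coumarin (200 mg/kg), 1,2-dibromoethane (62 mg/kg) and benzene (100 mg/kg) were given in corn oil and share 8 corn oil controls. N-methylolacrylamide (50 mg/kg) and 2-chloromethylpyridine hydrochloride (250 mg/kg) were given by gavage in water and share 4 water controls. Feed carried 4-nitroanthranilic acid (10000 ppm), malathion (16000 ppm), diazinon (200 ppm) or, at 1250 ppm, 2,2-bis(bromomethyl)-1,3-propanediol, with 4 shared feed controls. Gavage was at 5 ml/kg on 5 days a week, also in the gavage controls. Per the labels, 7 chemicals are positive for lung tumours: 1,5-naphthalenediamine, 2,3-benzofuran, coumarin, 1,2-dibromoethane, benzene, N-methylolacrylamide and 2,2-bis(bromomethyl)-1,3-propanediol. The other 6 are negative. The design holds a single dose of each chemical, a single time point and only females.

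Glutathione S-transferases join the thiol of glutathione to electrophilic compounds, which makes them more soluble and ready for export, and several members also reduce peroxides. The soluble classes act as dimers, whereas Mgst1 and Mgst2 belong to an unrelated family of membrane proteins. Many of their genes are induced through NRF2, a transcription factor that is held back by KEAP1 and binds antioxidant response elements, and some also through the aryl hydrocarbon receptor (AhR). In the lung, club cells of the airways hold much of the enzyme activity towards foreign compounds.

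Promoter sequences are shown because several members were higher together in the same animals, with values given further on. RefSeq sequence of build GRCm38.p6, from 250 bases before the annotated start up to it, was found for 9 of the 10 members by symbol, with Gsta4 the exception. The windows were searched on both strands for TGACNNNGC (the core of the antioxidant response element), TGAGTCA (an AP-1 element) and GCGTG (the core of the AhR response element). The Gsta2 window is at chr9:78347146-78347395 on the minus strand, and the capitals mark GCGTG. The Gsta3 window is at chr1:21240335-21240584 on the plus strand, and the capitals mark a match to TGACNNNGC. The Gstp1 window is at chr19:4037913-4038162 on the minus strand, and the capitals mark TGAGTCA and GCGTG. The Mgst2 window is at chr3:51660929-51661178 on the plus strand, and the capitals mark TGAGTCA read on the other strand.
Gsta2: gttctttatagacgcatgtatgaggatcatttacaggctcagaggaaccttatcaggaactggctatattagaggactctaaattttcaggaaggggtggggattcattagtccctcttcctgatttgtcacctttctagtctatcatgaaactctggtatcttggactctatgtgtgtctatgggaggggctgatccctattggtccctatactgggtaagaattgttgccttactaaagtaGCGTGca
Gsta3: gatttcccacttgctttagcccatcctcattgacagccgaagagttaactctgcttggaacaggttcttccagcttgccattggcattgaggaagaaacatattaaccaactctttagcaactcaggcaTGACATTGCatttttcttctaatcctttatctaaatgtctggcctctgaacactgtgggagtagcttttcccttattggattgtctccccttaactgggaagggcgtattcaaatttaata
Gstp1: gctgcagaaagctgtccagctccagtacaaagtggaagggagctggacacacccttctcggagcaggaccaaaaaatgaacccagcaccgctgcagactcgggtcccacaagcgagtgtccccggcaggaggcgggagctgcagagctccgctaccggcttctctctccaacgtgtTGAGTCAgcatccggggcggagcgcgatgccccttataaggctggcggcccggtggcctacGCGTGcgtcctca
Mgst2: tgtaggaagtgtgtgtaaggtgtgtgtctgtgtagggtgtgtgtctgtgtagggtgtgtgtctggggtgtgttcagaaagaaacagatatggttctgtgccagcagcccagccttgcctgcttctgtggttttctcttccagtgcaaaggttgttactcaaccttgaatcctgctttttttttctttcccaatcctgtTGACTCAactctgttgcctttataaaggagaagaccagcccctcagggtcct

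The antioxidant response element core was found in the windows of Gsta3 and Mgst1, and in 10.2% of the 32851 promoter windows of that length. By gene, with a match in any of its windows, the share was 11.5%. Mgst1 has another window, which held none of the motifs. TGAGTCA was found in the windows of Gstp1 and Mgst2, and in 4.46% of windows (5.16% of genes). GCGTG was found in those of Gsta2, Gstm1 and Gstp1, and in 28.2% of windows (30.9% of genes). Matches to different motifs share no bases, and Gstp1 held both TGAGTCA and GCGTG. The windows of Gstm2, Gstt1 and Gsto1 held none of these letters. A match describes letters in a short window and nothing more.

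The arrays read as lung. Over the 70 arrays the mean log2 signal was 14.2 for Scgb1a1 (a club cell secretory protein, lowest array 13.9), 14.4 for Sftpc (surfactant of alveolar type II cells) and 14.1 for Ager (alveolar type I cells). Of all pairs of arrays 0 were identical. The mean of 6 hepatocyte markers was 4.97 to 5.14 by group in set 1 and 5.91 to 8.21 in set 2, where 1 diazinon array reached 10.1. None of the 6 was called against matched controls with any of the 13 chemicals, which does not show equal levels. Their median change ran from -0.85 with 1,2-dibromoethane, where 0 of 6 lay above 0, to 0.58 with malathion, where 6 of 6 did. With their mean as a covariate 30 of the 30 calls of a member with a chemical were kept. RNA degradation shows as a larger gap between 3' and 5' control probes for Actb and Gapdh, and that gap (log2) was 0.989 in animal 2-56 (1,2-dibromoethane) and 0.523 in animal 1-10 (2,3-benzofuran). Lung lobe RNA is a mixture, and a lower or higher share of a cell type cannot be told apart from a change of RNA per cell. Closely related genes (Gsta1 beside Gsta2, Gstp2 beside Gstp1, the Gstm genes among themselves) can share probes, so a value may include signal from a relative.

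**Figure D1:**
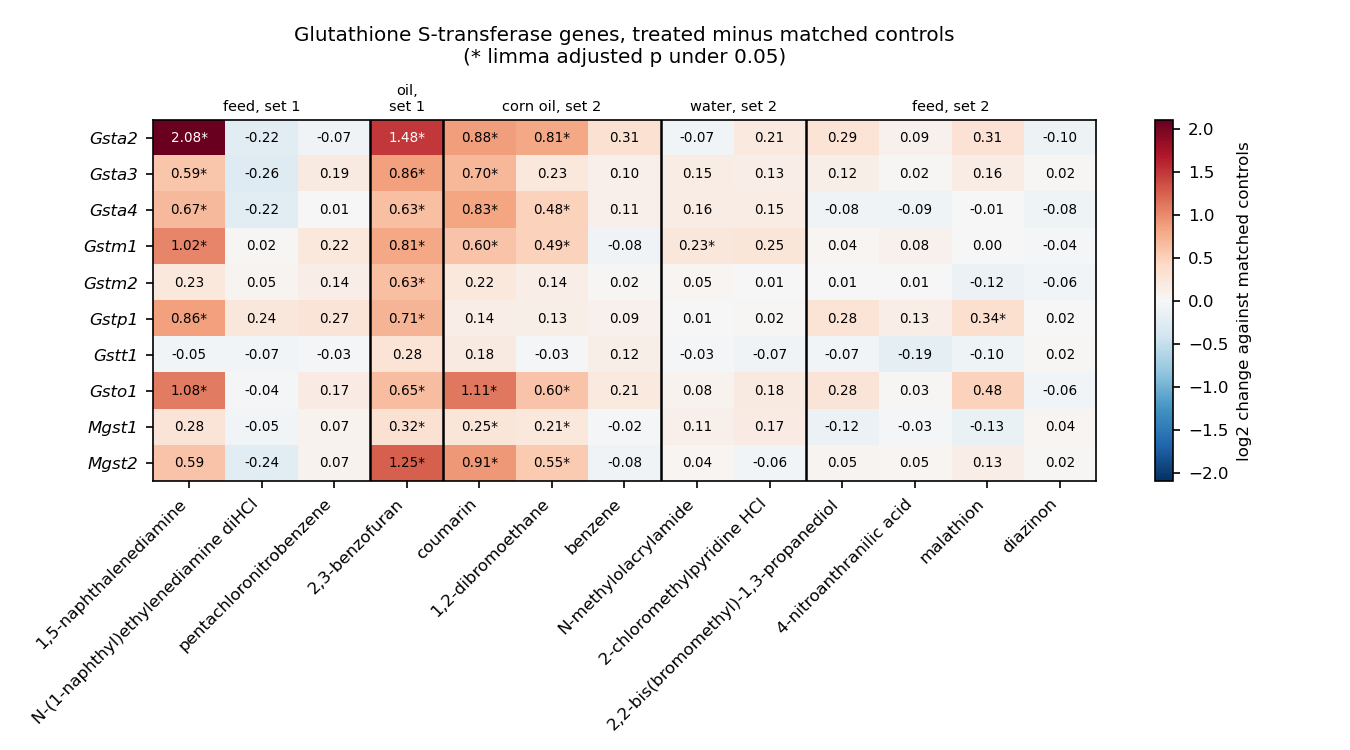
Log2 change of each of the 10 transferase genes (rows) with each of the 13 chemicals (columns) against controls of the same vehicle and set, coloured from blue (lower) to red (higher), with an asterisk where limma's adjusted p was under 0.05. Calls gather in the columns of 1,5-naphthalenediamine (6 of 10), 2,3-benzofuran (9 of 10), coumarin (7 of 10) and 1,2-dibromoethane (6 of 10), and Gstt1 has none.

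1,5-Naphthalenediamine raised 6 of the 10 transferases, and 0 fell. The 6 are Gsta2, Gstm1, Gsto1, Gstp1, Gsta4 and Gsta3, and Gsta2 had the largest rise, 4.23-fold. Among all genes tested 1.11% were called in this comparison, and 0.959% were called higher (limma over all 70 arrays, Benjamini-Hochberg adjusted p under 0.05). The median change of the 10 members was 0.63 log2 units, against -0.02 over all genes.

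Gsta2, an alpha class enzyme known in mouse liver to be inducible by antioxidants, read 9.43, 9.53 and 9.58 in the treated animals and 7.35, 7.40 and 7.56 in the feed controls. The groups lay far apart, with a rise of 2.08 ± 0.21 log2 units (SE; limma adjusted p = 6.67e-11). Gstm1, a major mu class enzyme, read 12.57, 12.73 and 12.79 against 11.62, 11.66 and 11.74. Its rise was 1.02 ± 0.09 (limma adjusted p = 1.31e-12), and the spread within each group was small beside it. Gsto1, an omega class enzyme with thioltransferase activity, read 11.81, 11.81 and 11.87 against 10.53, 10.78 and 10.94. It rose by 1.08 ± 0.20 (limma adjusted p = 0.000376), again with no overlap. Gstp1, the pi class enzyme, read 12.40, 12.54 and 12.59 against 11.59, 11.63 and 11.73 and rose by 0.86 ± 0.09 (limma adjusted p = 1.82e-10).

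Gsta4, which favours 4-hydroxynonenal and other products of lipid peroxidation, read 11.15 to 11.29 against 10.33 to 10.68 and rose by 0.67 ± 0.13 (limma adjusted p = 0.00135). Gsta3, which in mice detoxifies the epoxide of aflatoxin, read 11.10 to 11.22 against 10.53 to 10.65 and rose by 0.59 ± 0.14 (limma adjusted p = 0.0112). Gsta3 lost its call without feed control 1-28 (adjusted p = 0.0564) or 1-29 (0.0958), without treated animal 1-2 (0.0506) or 1-5 (0.0760), and with its other probe set (0.0659). Gsta4 lost its call without feed control 1-29 (adjusted p = 0.0530). Mgst2 (0.59, adjusted p = 0.220) and Mgst1 (0.28, adjusted p = 0.0627) did not pass, although their treated and control animals did not overlap. In 8 of the 10 members each treated animal lay above each control, which held for 9.07% of all genes. Gstm2 (0.23, adjusted p = 0.534) and Gstt1 (-0.05, interval -0.33 to 0.23) did not pass either. Ciliated cell markers averaged 8.72 to 8.74 in the treated animals and 8.21 to 8.76 in the controls, and 0 of 8 were called. Of 6 macrophage markers 1 rose, Marco (1.32), a scavenger receptor, and the others were not called and lay below 0 (list median -0.12).

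Among genes that make glutathione 4 of 8 rose with 1,5-naphthalenediamine: Gclm (1.48) and Gclc (1.46), the subunits of the rate-limiting ligase, Gss (0.94), which completes the tripeptide, and Slc3a2 (0.49), a subunit of the cystine carrier. Of 11 redox genes, which act on glutathione or thioredoxin, 3 rose: Gpx2 (2.46), a glutathione peroxidase, Txnrd1 (1.54), a thioredoxin reductase, and Gsr (0.90), glutathione reductase. Of 13 genes that export or break down conjugates 3 rose, the efflux pumps Abcc4 (0.89), Abcc5 (0.61) and Abcc1 (0.57). Of 14 other transferase genes 0 were called, with a median change of 0.35. Of 9 regulators, among them Nfe2l2 (which encodes NRF2), Keap1 and Ahr, 0 were called, with a median of 0.01.

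**Figure D2:**
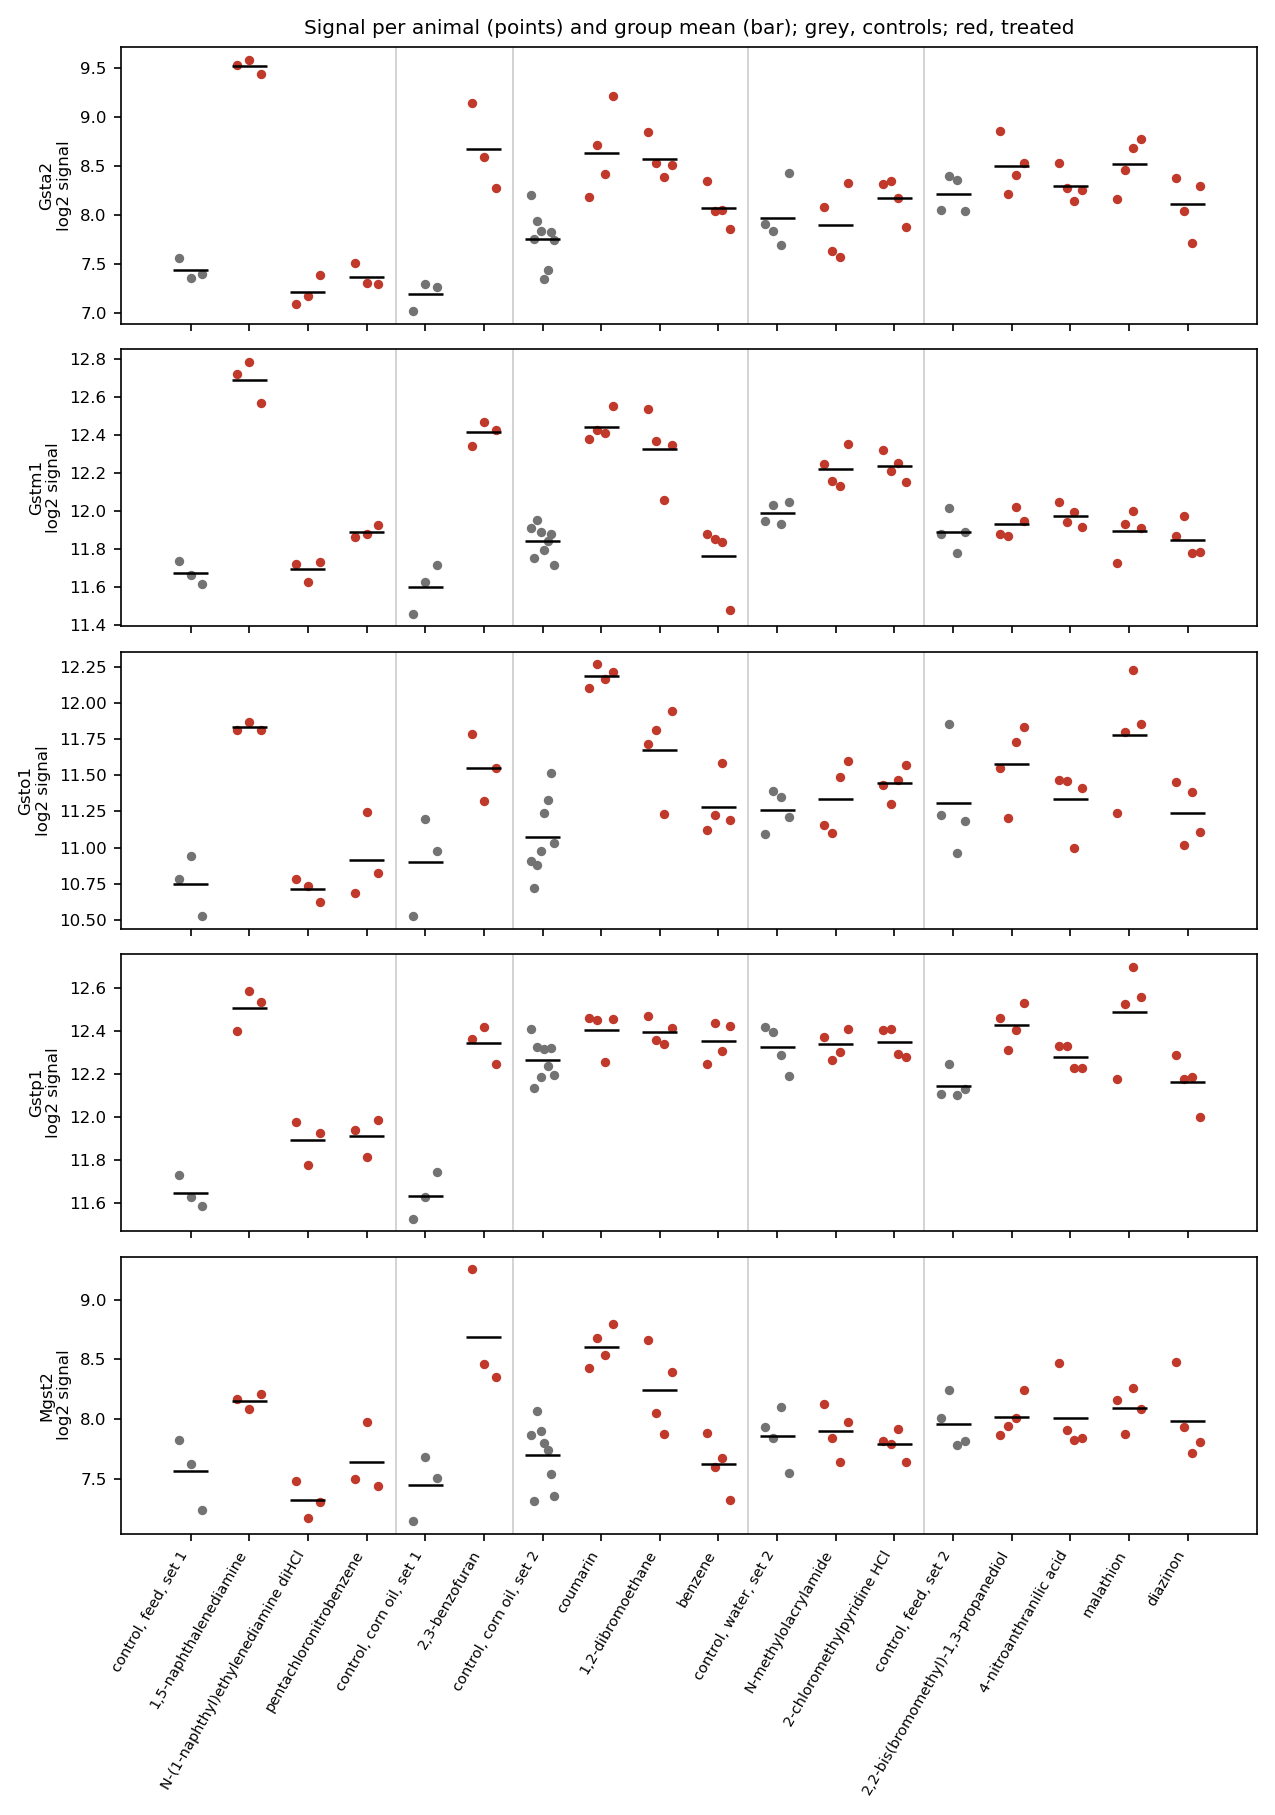
Log2 signal (vertical axes) of Gsta2, Gstm1, Gsto1, Gstp1 and Mgst2 in each animal (points; grey, controls; red, treated) with the group mean as a bar, and grey lines between blocks of 1 vehicle and set. The 3 animals given 1,5-naphthalenediamine lie above all other animals for Gsta2, with values of 9.43 to 9.58.

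The other naphthalene amine of the study gave a different picture. N-(1-naphthyl)ethylenediamine dihydrochloride was fed at the same 2000 ppm in the same set, and it differs in carrying an aminoethylamino chain in place of amino groups on both rings. Against feed controls 0 of the 10 members were called, and 0.00685% of all genes were. Gsta2 read 7.09, 7.16 and 7.38 and did not pass (-0.22, 95% interval -0.65 to 0.20, adjusted p = 0.829). Pentachloronitrobenzene, which shares those controls, also gave 0 of 10 with 0.00685% of all genes called, and Gsta2 read 7.29, 7.30 and 7.51 (-0.07, interval -0.49 to 0.35).

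The difference between the naphthalene amines was tested directly between the treated animals. Of the 10 members 8 were higher with 1,5-naphthalenediamine and 0 were lower, where 1.67% of all genes were called and 1.49% were called higher. Gsta2 differed by 2.30 ± 0.21 (interval 1.88 to 2.73, limma adjusted p = 2.51e-12), Gsto1 by 1.12 ± 0.20, Gstm1 by 1.00 ± 0.09, Gsta4 by 0.89 ± 0.13 and Gsta3 by 0.85 ± 0.14. Mgst2 (0.84 ± 0.21, adjusted p = 0.0126), Gstp1 (0.61 ± 0.09) and Mgst1 (0.33 ± 0.08, adjusted p = 0.00810) also passed. Gstm2 (0.17, interval -0.04 to 0.39) and Gstt1 (0.01, interval -0.27 to 0.29) did not. Against pentachloronitrobenzene, fed at a different dose, 5 of 10 were higher with 1,5-naphthalenediamine (0.973% of all genes called), namely Gsta2 (2.15 ± 0.21), Gsto1 (0.92 ± 0.20), Gstm1 (0.80 ± 0.09), Gsta4 (0.67 ± 0.13) and Gstp1 (0.59 ± 0.09).

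Cyp1a1, the standard target gene of AhR, rose with all 3 of these fed chemicals: by 6.05 with 1,5-naphthalenediamine, 3.17 with the ethylenediamine and 3.58 with pentachloronitrobenzene. Nqo1, a quinone reductase and NRF2 target, rose by 3.14 with the first and did not pass with the others (0.36 and 0.64). Ciliated markers were lower with the ethylenediamine (group mean 8.12) than with 1,5-naphthalenediamine (8.73), and 3 of 8 were called in the direct comparison. With the mean of those markers as a covariate, 5 members in place of 8 were called, and 134 of all genes in place of 243.

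**Figure D3:**
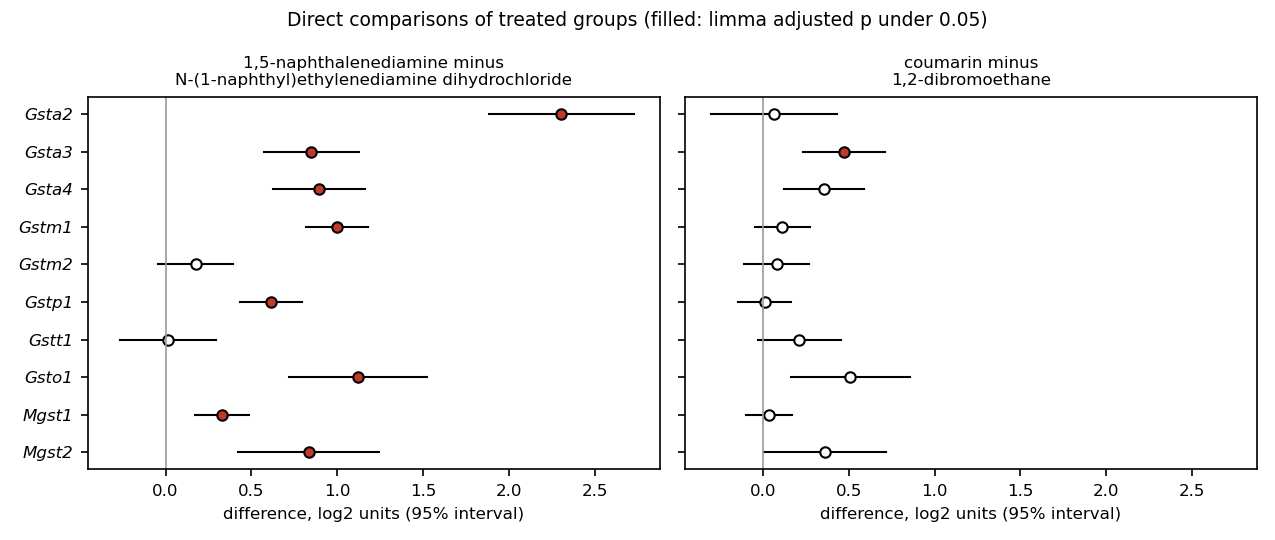
Difference in log2 signal (horizontal axes) with its 95% interval for each member between treated groups, filled where limma's adjusted p was under 0.05. The left panel (1,5-naphthalenediamine minus N-(1-naphthyl)ethylenediamine dihydrochloride) has 8 filled points and the right panel (coumarin minus 1,2-dibromoethane) has 1, Gsta3.

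2,3-Benzofuran raised 9 of the 10 transferases, all but Gstt1, and 0 fell. The largest rises were in Gsta2 (2.79-fold) and Mgst2 (2.37-fold), and the smallest was in Mgst1 (1.25-fold). Over all genes 4.07% were called and 3.55% were called higher. The median change of the members was 0.68, against 0.06 over all genes. In the same 9 genes each treated animal lay above each corn oil control, which held for 13% of all genes.

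Gsta2 read 8.27, 8.59 and 9.14 in the treated animals and 7.01, 7.26 and 7.29 in the corn oil controls, a rise of 1.48 ± 0.21 (limma adjusted p = 7.10e-06). Mgst2, a membrane enzyme that in humans can make leukotriene C4, read 8.36, 8.46 and 9.26 against 7.14, 7.51 and 7.68 and rose by 1.25 ± 0.21 (limma adjusted p = 9.18e-05). Animal 1-10 was the highest for both genes. Gstm1 read 12.35, 12.43 and 12.47 against 11.46, 11.63 and 11.72 and rose by 0.81 ± 0.09 (limma adjusted p = 1.47e-08), with little spread among treated animals. Gsta3 rose by 0.86 ± 0.14, Gstp1 by 0.71 ± 0.09 and Gsta4 by 0.63 ± 0.13. Gstm2, a mu class enzyme, read 11.23, 11.29 and 11.61 against 10.66, 10.74 and 10.82. Its rise of 0.63 ± 0.11 (limma adjusted p = 0.000184) was its only call among the 13 chemicals.

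Gsto1 rose by 0.65 ± 0.20 with an adjusted p of 0.0491, and Mgst1, a membrane enzyme of the endoplasmic reticulum and mitochondria, by 0.32 ± 0.08 (limma adjusted p = 0.010). Without animal 1-10 the calls of Gsta4 (adjusted p = 0.201), Gsto1 (0.578) and Mgst1 (0.160) were lost, and likewise without corn oil control 1-22 (0.0913, 0.345 and 0.107), which left 6 calls each time. Gsto1 also lost its call without animal 1-8 (0.0578) or control 1-25 (0.0657), without the filter (0.0579), after quantile normalization (0.0643) and with array weights (0.0679). Gstt1 (0.28, interval 0.00 to 0.56, adjusted p = 0.293) did not pass. Fitted on the 6 arrays of these groups alone, 0 of the 10 members were called, with 9 calls over all genes.

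The rest of the pathway moved with 2,3-benzofuran in part. Of 14 other transferases 7 rose, led by Gstm6 (0.97), Gstz1 (0.79), Gstt2 (0.73) and Gstt3 (0.70), with a list median of 0.64. Gss (0.59) and Gclm (0.54) rose among 8 synthesis genes, and Gpx2 (1.68), Txnrd1 (0.60) and Gpx4 (0.39) among 11 redox genes. Of 13 genes for conjugates 2 rose, Acy3 (0.70), an aminoacylase, and Ggt6 (0.52), of the gamma-glutamyltransferase family. Ciliated markers were higher in these animals (8.77 to 9.27, against 8.24 to 8.56 in controls) and 2 of 8 were called, Cfap126 (0.94) and Dynlrb2 (0.74). With their mean as a covariate, Gsta2 (1.50), Gstm1 (0.77), Gstp1 (0.70) and Mgst2 (1.01) kept their calls, while Gsta4 (0.37, adjusted p = 0.0541), Gsto1 (0.20, 0.442) and Mgst1 (0.18, 0.105) lost them. That fit called 6 members, and 1052 of all genes in place of 594.

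Coumarin raised 7 of the 10 transferases and 0 fell. Gsto1 rose by the most, 2.16-fold, followed by Mgst2 (1.88-fold), Gsta2 (1.84-fold), Gsta4 (1.78-fold), Gsta3 (1.63-fold), Gstm1 (1.52-fold) and Mgst1 (1.19-fold). Over all genes 4.09% were called, 2.91% higher and 1.18% lower, and the median change was 0.65 for the members and -0.01 for all genes. The count stayed at 7 when each of the 12 arrays was left out in turn, and was 6 in a fit on those arrays alone.

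Gsto1 read 12.10, 12.17, 12.21 and 12.27 with coumarin, and its 8 corn oil controls ran from 10.72 to 11.51 with a mean of 11.07. The groups were well apart, and the rise was 1.11 ± 0.15 (limma adjusted p = 3.55e-07). Mgst2 read 8.43, 8.53, 8.68 and 8.80 against 7.31 to 8.06 and rose by 0.91 ± 0.15 (limma adjusted p = 4.65e-05). Gsta4 read 11.07, 11.28, 11.29 and 11.39 against 10.22 to 10.67 and rose by 0.83 ± 0.10 (limma adjusted p = 2.49e-08). Both had no overlap between groups. Gsta2 read 8.18, 8.42, 8.72 and 9.21 against 7.34 to 8.20, so that the lowest treated animal lay just under the highest control. It rose by 0.88 ± 0.16 (limma adjusted p = 0.000150).

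Gsta3 rose by 0.70 ± 0.10, Gstm1 by 0.60 ± 0.07 and Mgst1 by 0.25 ± 0.06, each with every treated animal above every control. That pattern held for 6 of the 10 members and for 1.62% of all genes. Gstp1 read 12.26, 12.45, 12.46 and 12.46 against 12.14 to 12.41 and did not pass (0.14, interval 0.01 to 0.28, adjusted p = 0.270). Gstm2 (0.22, adjusted p = 0.123) and Gstt1 (0.18, adjusted p = 0.382) did not pass. Of 14 other transferases 4 rose: Gstm3 (0.72), Gstz1 (0.62), Gstt3 (0.49) and Gstt2 (0.41), with a list median of 0.30. Gss (0.56) and Gclm (0.43) rose among the synthesis genes. Gpx2 (1.50), Txnrd1 (0.76) and Gpx8 (0.45) rose among the redox genes and Gpx3, a secreted peroxidase, fell by 0.31. Abcc1 rose by 0.27, the single call among 13 conjugate genes.

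Markers of other cell types moved with coumarin too. Of 6 club markers 3 rose, Cldn10 by 0.59, Scgb3a2 by 0.35 and Hp by 0.29. Of 8 ciliated markers 3 rose, Cfap126 by 0.81, Rsph1 by 0.74 and Dynlrb2 by 0.71. Of 6 endothelial markers 2 fell, Cdh5 by 0.57 and Cldn5 by 0.38. With the ciliated mean as a covariate 7 members were called, and 1152 of all genes in place of 597, though Mgst1 (0.15, adjusted p = 0.0787) was no longer among them and Gstm2 (0.27, adjusted p = 0.0467) came in. With the club mean 6 were called, with 623 of all genes, and Mgst1 (0.16, adjusted p = 0.0631) was lost.

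1,2-Dibromoethane raised 6 of the 10 transferases and 0 fell, by smaller amounts: Gsta2 by 0.81 ± 0.16, Gsto1 by 0.60 ± 0.15, Mgst2 by 0.55 ± 0.15, Gstm1 by 0.49 ± 0.07, Gsta4 by 0.48 ± 0.10 and Mgst1 by 0.21 ± 0.06. Over all genes 4.03% were called, 1.94% higher and 2.09% lower. The members' median was 0.35, against 0.00 over all genes. Its controls are the same 8 corn oil animals as for coumarin.

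Gsta2 read 8.39, 8.51, 8.53 and 8.85, above the highest control at 8.20 (limma adjusted p = 0.00141). Gstm1 read 12.06, 12.35, 12.37 and 12.54, above the highest control at 11.95 (limma adjusted p = 5.69e-06). In these 2 of the 10 members each treated animal lay above each control, as in 0.884% of all genes, and in the other 4 called genes the groups overlapped. Mgst2 read 7.87, 8.05, 8.40 and 8.67 against 7.31 to 8.06 (limma adjusted p = 0.0299), and Gsto1 read 11.23, 11.72, 11.81 and 11.94 against 10.72 to 11.51 (0.0139). Gsta3 read 9.90, 10.45, 10.80 and 10.92 against 10.07 to 10.54 and did not pass (0.23, adjusted p = 0.203). Its lowest animal was 2-56, which also had the probe gap of 0.989. The other Gsta3 probe set rose by 0.54 ± 0.14 (limma adjusted p = 0.0142), so the call depends on the probe set. Gstt1, a theta class enzyme known to act on small dihaloalkanes such as 1,2-dibromoethane, read 10.58, 10.84, 10.86 and 11.15 against 10.56 to 11.15. The groups overlapped (-0.03, interval -0.24 to 0.18, adjusted p = 0.911).

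The count of 6 fell to 3 without animal 2-58 and to 4 without 2-54, to 5 without 2-52 or control 2-134 or 2-97, and rose to 7 without 2-56. Gsto1 lost its call with array weights (adjusted p = 0.0799) and as the mean over its probe sets (0.0796). The count fell to 0 in a fit on the 12 arrays of these groups alone, where 10 of all genes were called in place of 588. It fell to 2 (Gsta2 and Gstm1) with the ciliated mean as a covariate, where 331 of all genes were called. Ciliated markers averaged 8.30 to 8.77 in the treated animals and 7.70 to 8.44 in the controls, and 3 of 8 were called: Dynlrb2 (0.73), Rsph1 (0.64) and Cfap126 (0.56). Of 6 club markers 1 was called, Hp (0.28), and of 6 macrophage markers 2 fell, Siglecf by 1.07 and Itgax by 0.58. Of 5 alveolar type II markers 2 fell, Slc34a2 by 0.26 and Sftpa1 by 0.21. The part of the macrophage and alveolar type II markers in the result was not tested. With the club mean as a covariate 4 members were called, and 412 of all genes in place of 588. Elsewhere in the pathway Gpx2 rose by 0.99 and Gss by 0.35, Gstcd fell by 0.27, and Anpep, an aminopeptidase of the conjugate list, fell by 0.72.

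Coumarin and 1,2-dibromoethane were compared directly, at doses that differ (200 and 62 mg/kg). Gsta3 was the 1 member called, higher with coumarin by 0.47 ± 0.12 (limma adjusted p = 0.0279), where 1.54% of all genes were called. That call was lost without either coumarin animal 2-75 or 2-80 or dibromoethane animal 2-54 or 2-56, in a fit on these 8 arrays alone, and with the other Gsta3 probe set (0.19, adjusted p = 0.572). Gsto1 (0.51, interval 0.16 to 0.86, adjusted p = 0.110) and Gsta4 (0.35, interval 0.12 to 0.59, adjusted p = 0.0929) did not pass. Gsta2 differed by 0.06, with an interval of -0.30 to 0.43. Against benzene, also in corn oil, 6 members were higher with coumarin (4.84% of all genes called): Mgst2 by 0.99 ± 0.18, Gsto1 by 0.90 ± 0.17, Gsta4 by 0.72 ± 0.12, Gstm1 by 0.68 ± 0.08, Gsta3 by 0.60 ± 0.12 and Mgst1 by 0.27 ± 0.07. The other Gsta3 probe set did not pass against benzene (0.47, limma adjusted p = 0.0635), and leaving out 1 array gave 5 to 7 members. In the same comparison 3 of 8 ciliated markers were higher with coumarin, Cfap126 by 0.95, Dynlrb2 by 0.92 and Rsph1 by 0.90, and 2 of 6 club markers, Cldn10 by 0.69 and Scgb3a2 by 0.40. With the ciliated mean as a covariate 6 members were called, and 2260 of all genes in place of 706.

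**Figure D4:**
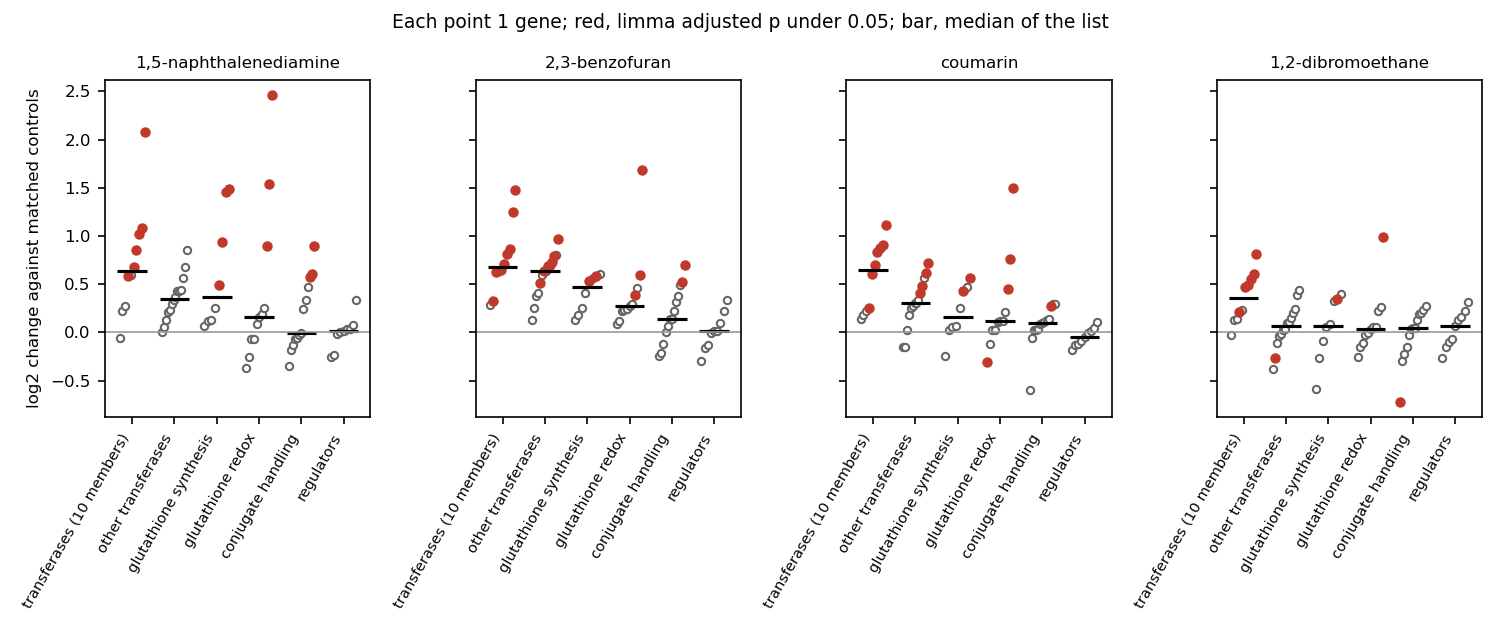
Log2 change (vertical axis) of each gene of the 10 transferases and of 5 further lists of related genes with 4 chemicals. Points are red where limma's adjusted p was under 0.05, and a bar marks the list's median. The transferases' medians are 0.63, 0.68, 0.65 and 0.35 from left to right, and no regulator is called with these chemicals.

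The remaining chemicals gave few calls. With benzene 0 of 10 members were called (0.0891% of all genes, 0.0822% higher), and Gsta2 read 7.85, 8.03, 8.04 and 8.34 (0.31 ± 0.16, adjusted p = 0.536). With 2,2-bis(bromomethyl)-1,3-propanediol, 4-nitroanthranilic acid and 2-chloromethylpyridine 0 members were called, as were 0% of all genes, by limma. At an unadjusted p under 0.05 the counts were 1, 0 and 2 of 10 members and 1568, 272 and 1710 of all genes. Gstp1 read 12.31, 12.40, 12.46 and 12.53 with the propanediol, above its feed controls at 12.10, 12.11, 12.13 and 12.25, and did not pass (0.28 ± 0.08, adjusted p = 0.272).

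With N-methylolacrylamide 17.9% of all genes were called against the water controls, 10.7% higher and 7.13% lower. The water controls differed from the feed controls of set 2 in 33.7% of all genes and from the corn oil controls in 22.9%. How far the calls with this chemical reflect its controls was not tested. Of the 10 members 1 was called. Gstm1 read 12.13, 12.16, 12.25 and 12.36 against 11.93, 11.95, 12.03 and 12.05 in the water controls, with no overlap, and rose by 0.23 ± 0.08 (limma adjusted p = 0.0321). The call was lost without each of treated animals 2-101, 2-102 and 2-109 and water controls 2-121, 2-124 and 2-127 (adjusted p = 0.0518 to 0.106), and in a fit on these 8 arrays alone. Another Gstm1 probe set gave -0.04 (adjusted p = 0.864). With 2-chloromethylpyridine the same gene read 12.16, 12.21, 12.25 and 12.33, a difference of 0.25 ± 0.08 from the same controls that did not pass (adjusted p = 0.351). Of the 9 regulators 3 were called higher than in the water controls with N-methylolacrylamide, Ahr by 1.07, Nfe2l2 by 0.55 and Bach1, a repressor at antioxidant response elements, by 0.55. In these 3 genes the water controls were themselves lower than the feed controls, by 0.92, 0.74 and 0.86, and lower than the corn oil controls, by 0.82, 0.63 and 0.64, all called. Ahr averaged 9.72 in the treated animals, 8.65 in the water controls, 9.58 in the feed controls and 9.47 in the corn oil controls of set 2, so the treated level lay close to those of the other vehicles. Another 3 regulators were called lower: Maff by 0.77, Mafk by 0.38 and Keap1 by 0.34. The synthesis genes Cbs (-0.46) and Oplah (-0.33) and the dipeptidase Dpep1 (-0.67) were called lower as well, and Cbs and Dpep1 were higher in water than in feed controls, by 0.40 and 0.55. Gstm1 differed between water and feed controls by 0.10 (interval -0.06 to 0.26). Marker lists were mixed with N-methylolacrylamide. Of 6 macrophage markers 1 was called higher, Mrc1 (list median -0.07, 2 above 0). So were 1 of 6 alveolar type I markers, Clic5 (-0.04, 1 above 0), and 2 of 6 endothelial markers, Emcn and Tek (0.04, 3 above 0). Corn oil controls were also higher than water controls in Mrc1 (0.94), Clic5 (0.57), Emcn (0.54) and Tek (0.41), all called. Mrc1, Clic5 and Emcn, but not Tek, were called lower in water than in feed controls. The part of these macrophage, alveolar type I and endothelial markers in the Gstm1 call was not tested. Of 8 ciliated markers 0 were called, but 8 lay above 0 (list median 0.12). With their mean as a covariate the Gstm1 call was lost (0.22, limma adjusted p = 0.0748), and 1247 of all genes were called in place of 2605. The call was kept with the club mean and with the hepatocyte mean.

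Malathion and diazinon, both organophosphate insecticides, were fed at doses that differ (16000 and 200 ppm), so their values are given side by side. With malathion 1 of 10 members was called (2.19% of all genes, 1.03% higher and 1.16% lower), and with diazinon 0 (0.00685%). Gstp1 read 12.18, 12.52, 12.56 and 12.70 with malathion and 12.00, 12.18, 12.18 and 12.29 with diazinon, against 12.10 to 12.25 in the shared feed controls. It rose by 0.34 ± 0.08 with malathion (limma adjusted p = 0.00852), and animal 2-33 lay within the controls. The call was lost without animal 2-38 (adjusted p = 0.0808) or 2-39 (0.0560), and in a fit on these 8 arrays alone. Gsto1 with malathion read 11.24, 11.80, 11.85 and 12.22 against 10.96, 11.18, 11.23 and 11.85 and did not pass (0.48 ± 0.17, adjusted p = 0.127). Gpx2 (1.13) and Txnrd1 (0.56) rose with malathion and Gstm3 fell by 0.86. Of 6 club markers 3 fell with malathion: Scgb3a2 by 0.59, Cyp2f2 by 0.32 and Scgb1a1 by 0.19. With the club mean as a covariate the change of Gstp1 was 0.35 (limma adjusted p = 0.0116).

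Controls were compared by vehicle. Corn oil against feed gave 0 called members in set 1, where 0% of all genes were called, and 0 in set 2, where 3.46% were, 1.79% of all genes lower in corn oil. In set 2 Gsta2 was lower in corn oil controls by 0.45 ± 0.16 (adjusted p = 0.0860) and Gsta4 by 0.33 ± 0.10 (adjusted p = 0.0518), neither of which passed. The difference between sets in the corn oil effect gave 0 called members and 0% of all genes, with 0 members and 743 of all genes at an unadjusted p under 0.05. Water against feed gave 33.7% of all genes, 15.5% higher and 18.2% lower in water, and 1 member, Gsta4, which read 10.27, 10.43, 10.48 and 10.65 in water controls and 10.66, 10.69, 10.70 and 10.97 in feed controls. It was lower by 0.29 ± 0.12 in water controls (limma adjusted p = 0.0438), and the count was 0 in 6 of the 8 fits that left out 1 of these arrays. Hepatocyte markers of set 2 lay below feed controls in water (list median -1.18) and corn oil (-0.92), with 0 of 6 above 0 and 0 called in each. With their mean as a covariate, water against feed gave 1 member called higher and 0 lower, with 4279 of all genes called. The lower call of Gsta4 was thus lost in that fit. Corn oil against water gave 22.9% of all genes and 0 members.

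The 7 chemicals labelled positive were set against the 6 labelled negative, with 1 value per chemical, its change against matched controls. By limma 0 members and 0% of all genes were called. At an unadjusted p under 0.05 there were 6 of 10 members and 943 of all genes. The median class difference was 0.35 for the members, 0.46 for ciliated markers (8 of 8 above 0) and 0.17 for club markers (6 of 6). The other marker lists had medians below 0, the lowest for hepatocyte markers (-0.17, 0 of 6 above 0). The part of cell types in the class difference was not tested. The mean change of Gsta2 was 0.83 (SD 0.75, n = 7) for positive and 0.04 (SD 0.20, n = 6) for negative chemicals, a difference of 0.79 with an interval of 0.21 to 1.37 (limma adjusted p = 0.746). That of Gsto1 was 0.57 (SD 0.41) and 0.13 (SD 0.20), and that of Mgst2 was 0.47 (SD 0.50) and -0.0049 (SD 0.13). For Gsta2, 5 of the 7 positive chemicals lay above the highest negative one, malathion at 0.31. The lowest of those 5 was benzene, also at 0.31, so benzene was level with malathion. Chemicals of 1 vehicle and set share controls, so the 13 values are not independent, and positives without a called member are benzene and 2,2-bis(bromomethyl)-1,3-propanediol. Every chemical given in corn oil is labelled positive, and the negatives were given in feed or water. Tumour class and vehicle therefore cannot be fully told apart.

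The 10 genes fall in an order by the number of chemicals that raised them. Gstm1 was called with 5 chemicals, Gsta2, Gsta4 and Gsto1 with 4 each, Gsta3, Gstp1, Mgst1 and Mgst2 with 3, Gstm2 with 1 and Gstt1 with 0 of 13. Gstt1 changes ran from -0.19 (4-nitroanthranilic acid) to 0.28 (2,3-benzofuran). No member was called lower with any of the 13 chemicals, except that with array weights 1 was with malathion. Gstp1 was called with 1,5-naphthalenediamine, 2,3-benzofuran and malathion, and Mgst2 with 2,3-benzofuran, coumarin and 1,2-dibromoethane.

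Genes whose changes over the 13 chemicals were most like those of each member are given as a description, with Pearson's r over 13 values that share controls and no p. For Gsta2 they were Acox2 (r = 0.966), Sptssb (0.964) and Abcc1 (0.957), and without 1,5-naphthalenediamine r was 0.933, 0.926 and 0.911. For Gsta3 they were Pir (0.974), Prdx3 (0.952) and Nme7 (0.948), and for Gsta4 Acsm1 (0.969), Nme5 (0.967) and Lrrc51 (0.965). For Gstm1 they were Sptlc3 (0.948), Dydc2 (0.947) and Ccl11 (0.941), and for Gsto1 Cxcl17 (0.971), Ces1g (0.962) and Cbr1 (0.961). For Gstp1 they were Cdc34 (0.934), 3000002C10Rik (0.918) and Nr2c2ap (0.913), which without 1,5-naphthalenediamine were at 0.87, 0.86 and 0.88. For Gstm2 they were Sdhaf2 (0.945), Fsip1 (0.937) and Gstm5 (0.934), which without 2,3-benzofuran were at 0.850, 0.833 and 0.782. For Mgst1 they were 1700094D03Rik (0.945), Cdhr3 (0.944) and Ppp1r36 (0.927). For Mgst2 they were Cfap126 (0.973), Tctex1d2 (0.961) and Gstz1 (0.958), and Cfap126 is one of the ciliated markers. The other genes named here are not on that marker list, and whether ciliated cells express them was not checked.

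**Figure D5:**
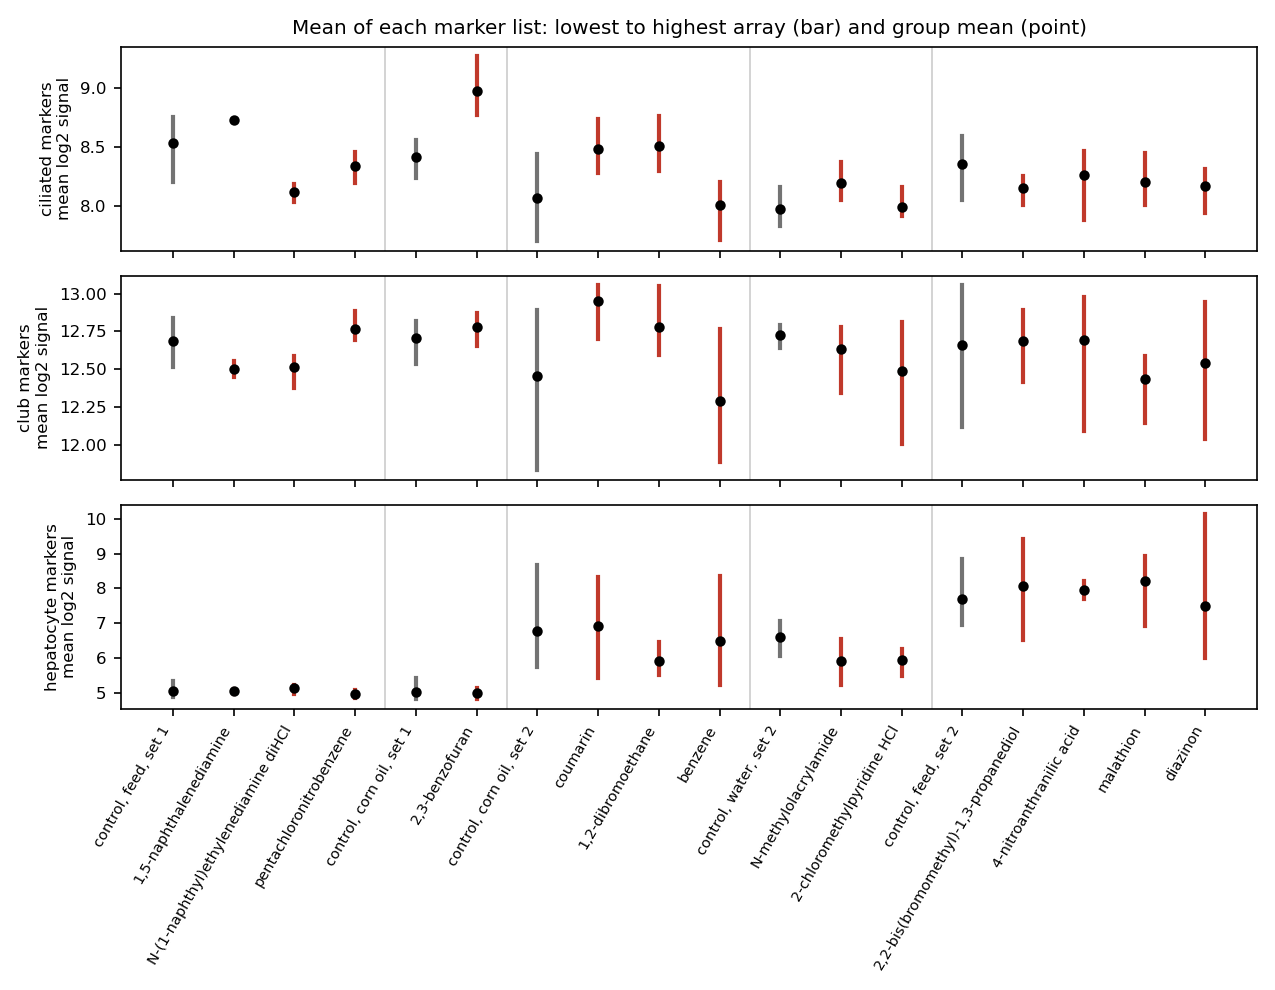
Mean log2 signal of the ciliated, club and hepatocyte marker lists (vertical axes) in each group, with the group mean as a point and a bar from the lowest to the highest array (grey, controls; red, treated). Ciliated markers lie highest with 2,3-benzofuran (8.77 to 9.27), and hepatocyte markers lie near 5 in set 1 and spread up to 10.1 in set 2.

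Where a member had a second probe set above the filter, both were tested. In the 4 chemicals with most calls, the other Gstm1 probe sets gave changes of 0.39 to 1.29 and 1 of 12 missed the threshold, with 2,3-benzofuran (0.50, adjusted p = 0.0524). The other Gsto1 probe set kept the calls with 1,5-naphthalenediamine (0.98) and coumarin (1.00) and missed with 2,3-benzofuran (0.72, adjusted p = 0.0678) and 1,2-dibromoethane (0.31, adjusted p = 0.333). Within groups the Gstm1 probe sets correlated with the one used at r = 0.943, 0.692 and 0.424, and those of Gsto1 at 0.785 and Gsta3 at 0.508. The second Mgst1 probe set had a mean signal of 3.66, below the filter, and the Mgst1 calls with 2,3-benzofuran (adjusted p = 0.255), coumarin (0.175) and 1,2-dibromoethane (0.511) were lost when both were averaged.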

How the data were processed

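Log2 expression values for 70 arrays were used as deposited by the authors in 1 table, with 45101 probe sets and values from 2.47 to 14.5. The summarisation and normalization behind them are not given in the sources used here. Per the labels' protocols, biotin-labelled targets were made from total RNA (Trizol, then RNeasy). Probe sets were named through the platform annotation (34945 with 1 symbol, 932 with several and 9160 with none, which were left out, as were 64 controls), and symbols were looked up in RefSeq GRCm38.p6 (18032 found).

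The probe set with the highest mean stood for each of 18193 genes, and 14593 genes passed a filter at the 30th percentile of probe set means (4.25). Group means of all 18 groups were fitted together with limma 3.58.1 in R 4.3.3, with 52 residual degrees of freedom, and p-values were adjusted by Benjamini-Hochberg over all tested genes in each comparison. A gene was called at an adjusted p under 0.05. Each array is 1 animal, and treated groups were compared with controls of the same vehicle and set. For the 10 members every comparison was computed. Genes of the other lists were named where called, and the 3 genes with the highest r stood for each member. The number of arrays limits the precision. The most alike pair of arrays correlated at 0.997.

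The members and lists were chosen with earlier results of these data known. Fits were tested on simulated data. Alternatives were another filter, probe set rule, normalization or variance model, array weights, the groups compared alone, blocks, covariates and leaving out each array. Covariates from cell type markers were chosen after seeing the data.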

Additional observations from a re-analysis of the deposited data

Results flagged for a closer look

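Each of the 10 genes was checked in each group of 4 or 8 animals, 120 checks in all. In 7 of them 1 animal lay far from the rest of its group, and chance gives about 1 in 20. The same animals enter for each gene, so the checks are not independent. Groups of 3 animals were not checked. Gsta4 read 10.97 in feed control 2-43 of set 2, and 10.66 to 10.70 in the other animals of that group. The benzene animal 2-90 was low for both Gstm1 (11.48, others 11.84 to 11.88) and Mgst1 (12.41, others 12.66 to 12.70). Among the animals given 4-nitroanthranilic acid, Gsto1 was low in 2-17 (11.00, others 11.41 to 11.47) and Mgst2 was high in 2-13 (8.47, others 7.82 to 7.91). Gstp1 read 12.26 in coumarin animal 2-76 and 12.45 to 12.46 in the others. Gstt1 read 11.05 in malathion animal 2-33 and 10.84 to 10.85 in the others.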

How the results depend on the processing

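Of the 30 calls of a member with a chemical, 10 were kept under each alternative that was run: Gsta2, Gstm1 and Gsto1 with 1,5-naphthalenediamine and with coumarin, Gstp1 with 1,5-naphthalenediamine, and Gsta3, Gsta4 and Mgst2 with coumarin. Of the 30, 30 were kept with the control probe gap as a covariate, with a filter at the 50th percentile and with a variance trend, 29 without a filter, 29 after quantile normalization, 28 with array weights, 25 with the mean over probe sets and 12 on the arrays of the compared groups alone. Fits on the compared groups alone called 0 members with 2,3-benzofuran, 1,2-dibromoethane, N-methylolacrylamide and malathion, and 0 for coumarin against 1,2-dibromoethane and for water against feed. Fewer arrays then estimate the spread. Array weights gave 3 members with 2,2-bis(bromomethyl)-1,3-propanediol (2958 of all genes), 1 with 2-chloromethylpyridine (314), 1 with N-(1-naphthyl)ethylenediamine (708), 4 with malathion, 3 higher and 1 lower (2371), 2 for corn oil against feed in set 2 (2307), 2 for water against feed (7584) and 0 for coumarin against 1,2-dibromoethane. The latter was also 0 with the control probe gap and with the mean over probe sets, which gave 0 with N-methylolacrylamide. Corn oil against feed in set 2 gave 1 with the mean over probe sets, the 50th percentile filter or the variance trend, and water against feed gave 0 with the RNA amount as a block or quantile normalization. The ciliated marker mean, an alternative chosen after seeing the data, gave 21 of the 30 calls, with 2 members for 1,2-dibromoethane, 0 for N-methylolacrylamide, 2 for malathion, 5 for 1,5-naphthalenediamine against the ethylenediamine, 3 for coumarin against 1,2-dibromoethane and 0 for water against feed. The club marker mean gave 27 of the 30, with 2 members for malathion. Another Gstm1 probe set turned the change with N-methylolacrylamide to -0.042. The causes were not tested. Leaving out 1 array gave 6 to 9 members for 2,3-benzofuran, 7 to 7 for coumarin, 3 to 7 for 1,2-dibromoethane, 4 to 6 for 1,5-naphthalenediamine (4 without control 1-29), 0 to 1 for N-methylolacrylamide, 0 to 2 for malathion, 0 to 2 for coumarin against 1,2-dibromoethane, 0 to 1 for corn oil against feed in set 2 and 0 to 2 for water against feed. No paired analysis was possible because animal numbers are not shared between groups.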
